A study of Mus musculus with 6 samples.

Results

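The genes described here encode the fibrillar collagens of bone and fibrous tissue, Col1a1, Col1a2, Col3a1, Col5a1, Col5a2 and Col5a3, together with Sparc, which encodes the collagen-binding matrix protein SPARC (osteonectin). They were chosen by name: every probe whose platform gene symbol is one of these was taken, which gave 14 probes for 7 genes, out of 19057 genes with a named probe on the array. Pups of strain FVB/N gave RNA of the primary calvaria, the flat bones that cover the brain, on postnatal day 3, and this was hybridised to Illumina bead arrays. The TG group held 3 arrays from mice that overexpress the microRNA miR-34c, and the WT group held 3 arrays from wild-type mice of the same strain and age. The labels call the arrays biological replicates without saying how many animals went into one, so the p-values measure the spread between these samples. The labels do not name the promoter of the transgene; the published miR-34c line is known as one driven by an osteoblast-active fragment of the Col1a1 promoter, which would place the microRNA in osteoblasts rather than in every cell of the calvaria.

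Fibrillar collagens form the tensile scaffold of bone, tendon, skin and vessel walls. They are made as procollagens whose chains fold into a triple helix in the endoplasmic reticulum, and are trimmed and cross-linked outside the cell into banded fibrils, which in bone then take up mineral. Type I collagen is the main organic component of bone, type III accompanies it in periosteum, skin and vessels, type V is built into type I fibrils and sets their diameter, and SPARC binds both collagen and mineral and is abundant in osteoblasts. MicroRNAs of the miR-34 family lower the messenger RNAs they pair with, and the TG mice were set against WT mice to find transcripts that follow a raised level of miR-34c.

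The promoters of Col1a2, the type I partner chain, and Col3a1, the type III chain, are shown as examples of the start regions of these genes. RefSeq windows of build GRCm38.p6 were found for 5 of the 7 genes, and the 250 bases before the annotated start are printed 5′ to 3′, with capitals marking matches on either strand. The motifs searched were the CCAAT box, spelled as in its name, the TATA box with the letters TATAAA, and the GC box with the letters GGGCGG; no matches overlapped.
Col1a2, chr6:4505368-4505617, plus strand: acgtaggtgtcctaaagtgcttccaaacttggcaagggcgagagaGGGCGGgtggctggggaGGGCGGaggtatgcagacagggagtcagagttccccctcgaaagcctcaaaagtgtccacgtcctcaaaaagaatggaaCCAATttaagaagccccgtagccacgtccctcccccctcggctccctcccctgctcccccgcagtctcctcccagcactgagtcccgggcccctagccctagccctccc
Col3a1, chr1:45311288-45311537, plus strand: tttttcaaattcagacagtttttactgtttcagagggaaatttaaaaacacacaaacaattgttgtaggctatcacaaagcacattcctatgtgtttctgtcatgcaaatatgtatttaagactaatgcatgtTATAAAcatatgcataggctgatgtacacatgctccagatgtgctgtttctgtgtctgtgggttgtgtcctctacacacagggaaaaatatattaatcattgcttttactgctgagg
The Col1a2 window held 1 CCAAT box and 2 GC boxes at a GC content of 62.0%, while the Col3a1 window held 1 TATAAA match at 35.2%. That match lay at positions -117 to -112 from the annotated start, and whether it acts as a TATA box was not tested. Over all 32851 windows of the same length, 33.8% held a CCAAT box, 12.4% a TATA box and 32.7% a GC box, and the median GC content was 52.4%. Of the 5 windows of these genes, 2 held a CCAAT box, 1 held a TATA box and 3 held a GC box. In the RefSeq gene order, Col3a1 and Col5a2 are adjacent coding genes on chromosome 1.

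The 6 arrays had median intensities of 125.1 to 132.6 and 19680 to 21412 probes detected at a detection p under 0.05, and their number limits the precision of every comparison. Values below are normalised log2 intensities unless stated. Osteoblast markers were present: all 9 of the 12 listed genes that had a named probe, among them Sp7, Alpl, Ibsp, Bglap and Dmp1, were detected on enough arrays to be tested. By Xist, the RNA of the inactive X chromosome, TG replicates 2 and 3 had a female pattern (9.18 and 9.34) and TG replicate 1 a male one (4.70), as had all WT arrays (4.49 to 5.12). Sex is thus partly confounded with genotype, and the parts of the 2 in a TG minus WT value cannot be fully told apart. RNA was measured in bulk, so fewer cells of a type and less RNA per cell cannot be told apart.

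In TG calvaria, none of the fibrillar collagen genes, nor Sparc, passed the test against WT. Of the 14 probes, 13 were detected on all 6 arrays and were tested within a limma fit of 20632 probes, and 0 of them had an adjusted p under 0.05, as had 0% of all probes tested. At an unadjusted p under 0.05 the count was also 0 of 13, against 3.45% of all probes (limma). The 13 log2 fold changes, TG minus WT, were negative for 8 probes and positive for 5, with a median of -0.015, where 49.9% of all probes tested were negative and the median was 0.00038. The most distant from 0 was -0.23, and no probe reached a 1.5-fold difference, which 0.679% of all probes did. For 12 of the 13 probes the 95% interval of the fold lay within 1.5-fold in both directions, the exception being the dim Col5a3 probe. The 12 include Col1a1 and the brightest Sparc probe, close to the array maximum, and Col5a2 probes close to background. For these probes the brightness may limit what a difference can show, which was not tested.

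No difference in type I collagen was detected, and the Col1a1 probe was near the top of the scale. Col1a1, the main chain of type I collagen, had 15.15, 15.26 and 15.31 on TG replicates 1 to 3, against 15.28, 15.08 and 15.28 on WT replicates 1 to 3. The groups overlapped, and the lowest array was WT replicate 2. The log2 fold change was 0.03 ± 0.12 (SE, limma, unadjusted p = 0.822), with a 95% interval of -0.25 to 0.30, a fold between 0.842 and 1.23. Its deposited intensity was 35351.1 to 41846.7, ranked 5 to 24 of 45281 probes, and 81.6% to 91.6% of each array's brightest probe. Col1a2, the partner chain, was measured well below that level, at 13.1% to 17.4% of the brightest probe. It had 12.71, 12.50 and 12.78 in TG, against 12.62, 12.43 and 12.86 in WT. The WT arrays held both the lowest and the highest of the 6 values, so the TG arrays lay wholly inside the WT range. The log2 fold change of Col1a2 was 0.03 ± 0.15 (95% interval -0.32 to 0.37), a fold between 0.804 and 1.29.

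**Figure D1:**
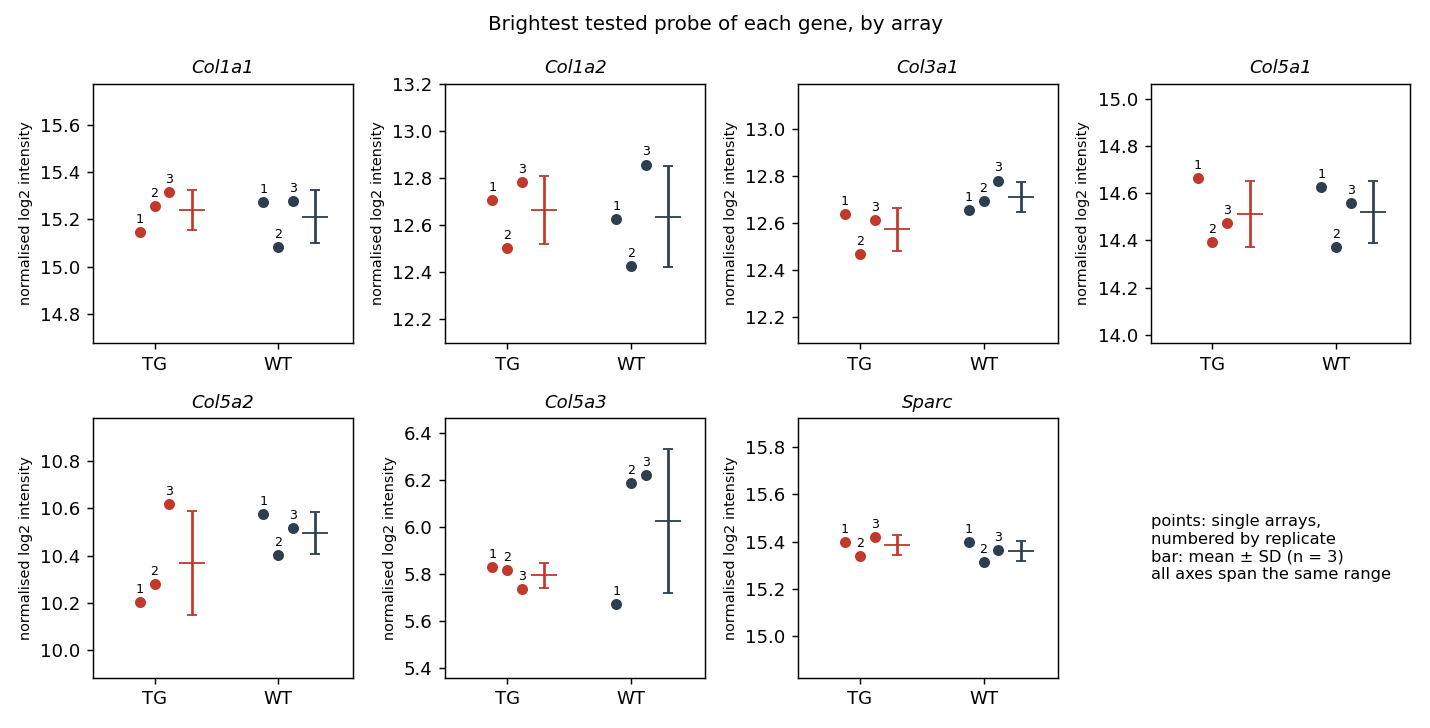
Normalised log2 intensity of the brightest tested probe of each gene, TG left and WT right, with points for single arrays numbered by replicate and bars for the mean ± SD (n = 3); every axis spans the same number of log2 units. The groups overlap in all panels but Col3a1, where the highest TG array, 12.64, lies just below the lowest WT array, 12.66, and the Sparc points are the tightest.

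Type III collagen had negative log2 fold changes on both of its probes, and neither passed the test. The brighter Col3a1 probe had 12.64, 12.47 and 12.61 in TG, against 12.66, 12.69 and 12.78 in WT. All TG values lay below all WT values, but the highest TG and the lowest WT array were 0.017 apart on the log2 scale. The log2 fold change was -0.14 ± 0.11 (SE, limma, unadjusted p = 0.265), with a 95% interval of -0.40 to 0.13. That makes 1 of 13 member probes without overlap, where 7.55% of all probes tested had none and 3.93% had all TG values below all WT values, so the count is near that background. The groups overlapped in the deposited intensities, where the highest TG array had 6719.7 and the lowest WT array 6425.9, and with median scaling, where lowest WT minus highest TG was -0.097 on the log2 scale. They stayed apart without background correction, in the authors' values, with cyclic loess and with an offset of 50. The gaps there were 0.0040 to 0.018. The dimmer Col3a1 probe had 10.45, 10.25 and 10.28 in TG, against 10.35, 10.36 and 10.86 in WT. Its groups overlapped and its difference rested on WT replicate 3, the highest array by far, with a log2 fold change of -0.20 ± 0.17 (95% interval -0.58 to 0.18). After normalisation, both probes were lowest on TG replicate 2 and highest on WT replicate 3.

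The brightest probes of the 3 type V chains all had negative log2 fold changes, from -0.23 to -0.0076, and every 95% interval included 0. Col5a1, whose product the type V molecule needs to start a fibril, had 14.67, 14.39 and 14.47 in TG, against 14.62, 14.37 and 14.56 in WT. The arrays interleaved, replicate 2 was the lowest of each group, and the log2 fold change was -0.0076 ± 0.13 (95% interval -0.31 to 0.29). Col5a2, which encodes the second kind of chain of the common type V trimer, had 5 probes. Its brightest had 10.20, 10.28 and 10.62 in TG, against 10.58, 10.40 and 10.52 in WT. TG replicate 3 was above every WT array while the other TG arrays were below them, so the log2 fold change of -0.13 ± 0.14 was smaller than the spread within the TG group, whose SD was 0.22. The 3 dimmer tested Col5a2 probes had 0.0024, -0.027 and 0.033, and the fifth, with intensities of 117.8 to 131.6 against a negative control median of 116.4 to 122.2, was not detected on any array. No Col5a2 probe separated the groups.

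Col5a3, a chain of type V collagen with a narrower tissue distribution, was close to background. Its probe had deposited intensities of 160.0, 156.5 and 164.0 in TG, against 156.7, 187.9 and 168.4 in WT. WT replicates 2 and 3 were above every TG array and WT replicate 1 was within the TG values on this scale. After normalisation it had 5.83, 5.82 and 5.73 in TG, against 5.67, 6.19 and 6.22 in WT, which gives -0.23 ± 0.16 on the log2 scale (limma, unadjusted p = 0.194; 95% interval -0.61 to 0.15). This was the largest difference of the set and, among the brightest probes of the 7 genes, the one that depended most on the background step: it was -0.09 without background correction and -0.06 in the authors' values. Without WT replicate 1, the lowest array, it was -0.41 (limma, unadjusted p = 0.0144, adjusted p = 0.999), and without WT replicate 3 it was -0.14.

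Sparc was measured by 3 probes that differed widely in brightness. The brightest was among the 5 brightest probes of every array, at 91.6% to 100% of the array's maximum, and had 15.40, 15.34 and 15.42 in TG, against 15.40, 15.31 and 15.36 in WT. Its 6 values lay within 0.11 of each other, and its log2 fold change was 0.03 ± 0.11 (95% interval -0.22 to 0.27). The middle probe, at 42.9% to 52.2% of the maximum, had 14.43, 14.19 and 14.39 in TG, against 14.47, 14.31 and 14.61 in WT. Its 6 values spanned 0.42, a wider range than that of the brightest probe, with TG replicate 2 lowest and WT replicate 3 highest. Its log2 fold change was -0.13 ± 0.13 (95% interval -0.43 to 0.18), of the opposite sign to the brightest. The dimmest, with deposited intensities of 1317.7 to 1776.9, had 10.53, 10.36 and 10.49 in TG, against 10.69, 10.22 and 10.51 in WT, and a log2 fold change of -0.015 ± 0.15. No Sparc probe separated the groups, and the 3 probes did not order the arrays alike.

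**Figure D2:**
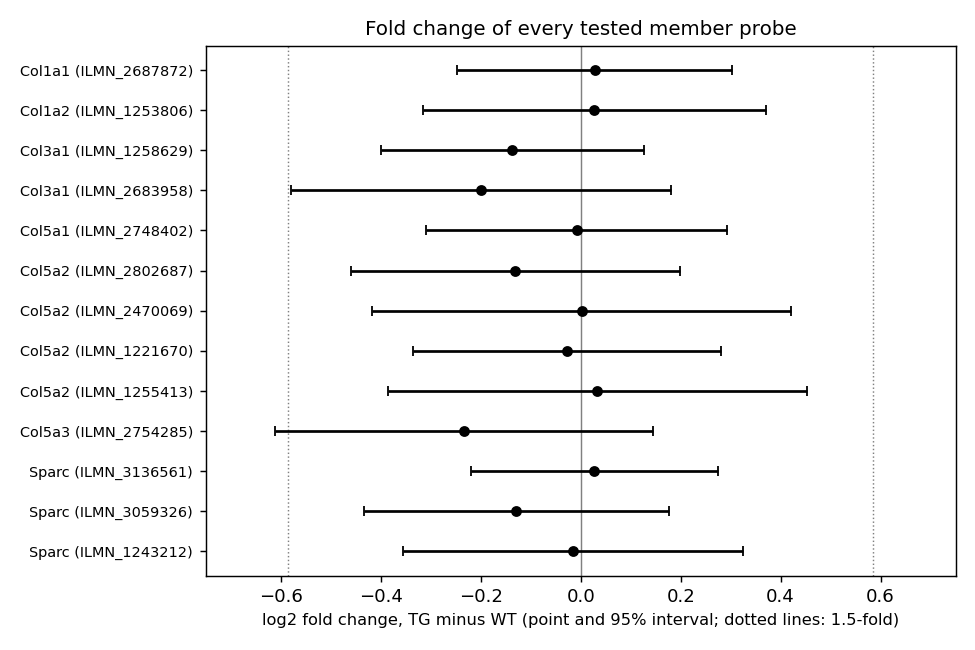
Log2 fold change, TG minus WT, of the 13 tested probes as points with 95% intervals from limma (n = 3 arrays per group); dotted lines mark 1.5-fold. Every interval includes 0, and the Col5a3 interval, -0.61 to 0.15, is the one that passes a dotted line.

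The narrow spread at the top was not particular to Sparc. The deposited intensity of the brightest Sparc probe varied by 1.12-fold between its lowest and highest array and that of Col1a1 by 1.18-fold, against 1.28-fold and 1.35-fold for the other Sparc probes, 1.32-fold for Col1a2 and 1.31-fold and 1.44-fold for the Col3a1 probes. Over all probes tested, the median range over the 6 arrays was 0.38 for probes with a mean between 8 and 10, 0.30 between 12 and 14, and 0.22 for the 25 probes above 15. Quantile normalisation sets the brightest probes of all arrays to shared values, and its part in this narrowing was not tested; the fold ranges of the deposited intensities above precede it. On the dim side the deposited intensities of Col5a3 and of the Col5a2 probes near background also varied little: by 1.20-fold for Col5a3 and by 1.17-fold and 1.10-fold for these Col5a2 probes, before the background was subtracted.

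**Figure D3:**
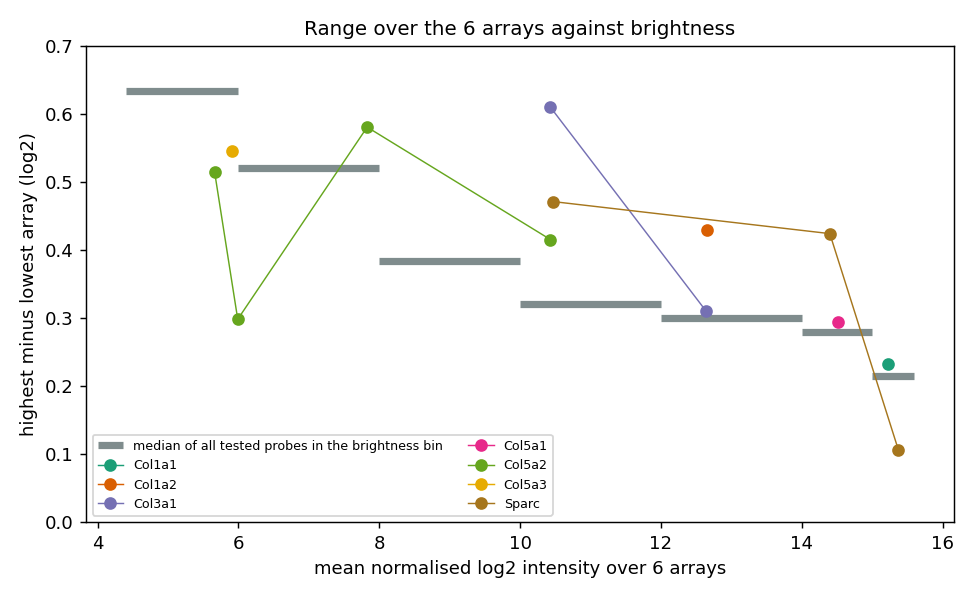
Highest minus lowest array (log2) of each tested probe of the 7 genes against its mean normalised log2 intensity, with probes of one gene joined by a line and grey bars for the median of all tested probes in each brightness bin. The Sparc line drops to 0.11 at the right edge, where the bin median is 0.22.

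Single arrays recurred as the lowest or highest among the members, whose probes share the arrays and are not independent. Of the 13 tested probes, 10 had their lowest normalised value on TG replicate 2 or WT replicate 2 (4 and 6 probes). The highest normalised value was on WT replicate 3 for 6 probes. In the deposited intensities, TG replicate 2 was the lowest array for most tested probes and WT replicate 2 for none. Of the probes highest on WT replicate 3 after normalisation, only the dimmer Col3a1 probe was highest there in the deposited intensities. Markers of neighbouring tissues also differed between these arrays. Skeletal muscle markers, 11 genes tested, had summed levels of 44596, 147300 and 124318 on TG replicates 1 to 3, against 78064, 184061 and 113620 on WT replicates 1 to 3 (background-corrected linear intensity), so replicate 2 was the highest of each group. All 11 muscle markers had negative log2 fold changes, with a median of -0.35, and none had an unadjusted p under 0.05 in limma. Chondrocyte markers, 11 genes tested with Matn3 not detected, ranged from 76277 to 115946 in TG and from 51767 to 102621 in WT, with WT replicate 3 the lowest. The summed level of the 7 member genes ranged from 114829 to 122207 in TG and from 110129 to 122389 in WT. The part of muscle or cartilage in the array differences was not tested. Of the skin epidermis markers only 2 of 7 with a named probe were tested, and Krt5, Krt14, Krt1, Krt15 and Trp63 were not detected on enough arrays, as were 5 of 7 adipocyte markers. Osteoblast markers had summed levels of 67073 to 86439 in TG and 73643 to 95195 in WT, with 7 of 9 negative; Bglap, encoding osteocalcin, had the most negative log2 fold change of them, at -0.78 ± 0.17 (limma, unadjusted p = 0.00177, adjusted p = 0.9998), with its other probe at -0.96. Bglap2, a near-identical copy whose probe may share signal, had -0.72 ± 0.21 (limma, unadjusted p = 0.00831, adjusted p = 0.9998), and neither gene's groups overlapped. These were the 2 of 9 osteoblast markers without overlap, where 7.55% of all probes tested had none. Each type I collagen gene had 0.03.

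**Figure D4:**
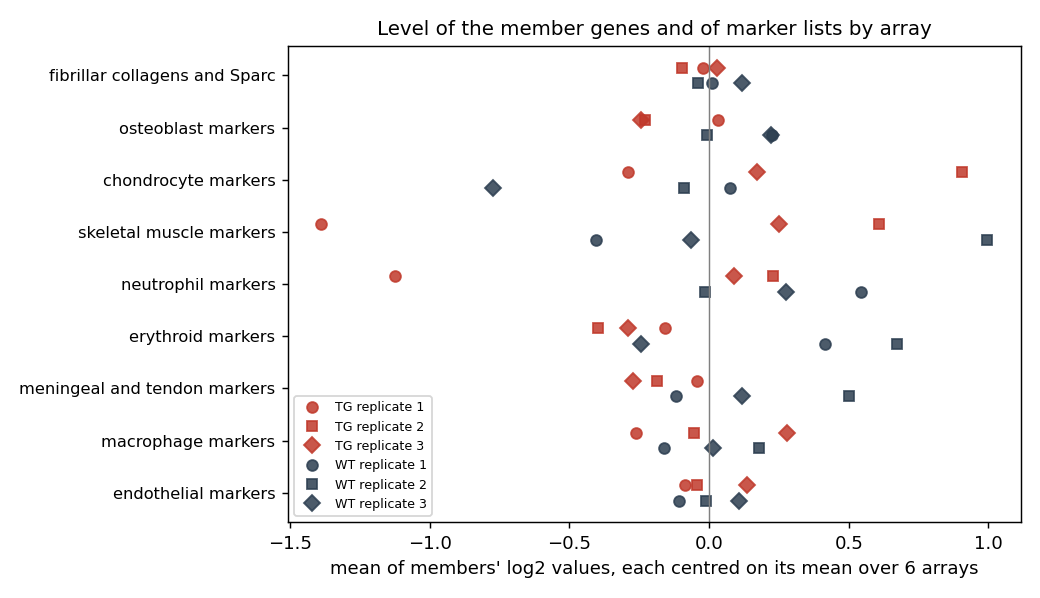
Mean log2 value per array of the 7 member genes and of 8 marker lists, each gene centred on its mean over the 6 arrays, with TG in red above WT in dark blue and symbols for replicates. The collagen and Sparc row spans -0.10 to 0.12, against -1.39 to 1.00 for skeletal muscle and -0.77 to 0.91 for chondrocyte markers.

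Member probes of one collagen type were not always the most alike across the arrays. Likeness was the root mean square difference over the 6 arrays of log2 values centred on each probe's mean, given as a description. The closest pair was Col5a1 with a Col5a2 probe close to background, at deposited intensities of 158.9 to 175.1, and they were 0.021 apart. Col5a1 was further from the other tested Col5a2 probes, at 0.19 from the brightest and 0.15 and 0.25 from the dimmer ones. The brightest Col1a1 and Sparc probes were 0.069 apart, where both were near the top of the range. Col1a1 and Col1a2, whose products join in one molecule, were 0.12 apart, and the Col3a1 probes were 0.14 apart from each other. Among 9878 other genes detected on every array, the closest to Col1a2 were Lacc1, Vps39 and Abcc4, at 0.035, 0.037 and 0.039. The closest to Col3a1 were B4galt1, Ankrd49 and Cltb at 0.020 to 0.026, to Col5a1 were Tbc1d10b, Tlcd3a and Mid2 at 0.028 to 0.031, and to the brightest Sparc probe were Zdhhc16, Eea1 and Ppia at 0.020 to 0.021. The median difference to all candidates was 0.15 to 0.20, and none of these 12 genes is another fibrillar collagen. With 9878 candidates and 6 arrays, unrelated genes can come this close, so nothing was concluded from these names.

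The genes that act with these collagens also had no member past the test. The other fibrillar collagens, which are mainly those of cartilage, were positive in 4 of 5 cases, with a median log2 fold change of 0.26, against a median of -0.0076 for the 7 member genes and -0.0013 for all genes tested; the difference between the lists was not tested. Chondrocyte markers, a list that shares Col2a1 with this one, had the same direction. Of them 10 of 11 were positive, with a median of 0.34, and their part in these values was not tested. Col2a1, the main cartilage collagen, had 0.27 ± 0.20, with its other probes at 0.11 and 0.19. Col27a1 had 0.26 ± 0.27 with its other probe at 0.27, and Col11a2 had 0.39 ± 0.18 with its other probe at -0.18. In the SPARC family 5 of 6 tested genes were positive, with a median of 0.07. Smoc1, a secreted SPARC-related calcium-binding protein of the matrix, had 8.75, 9.20 and 9.77 in TG, against 7.20, 9.05 and 8.52 in WT. The difference was 0.98 ± 0.45 on the log2 scale (limma, unadjusted p = 0.0628, adjusted p = 0.9998). TG replicate 1 was below WT replicate 2, and the WT spread, an SD of 0.95, was close to the difference; the other Smoc1 probe had 0.30. Sparcl1, which encodes the SPARC-like protein hevin, had 0.23 ± 0.23, Fstl1 had 0.10 ± 0.12, and Smoc2 was not detected on enough arrays.

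The machinery that builds collagen in the cell was evenly split. Of 17 genes of collagen hydroxylation and folding, 8 were positive and 9 negative, with a median of -0.014. Plod2, a lysyl hydroxylase that prepares collagen for cross-linking, had 10.74, 10.30 and 10.33 in TG, against 10.23, 10.20 and 9.98 in WT, without overlap. It was the 1 gene of the 17 without overlap, where 7.55% of all probes tested had none. Its log2 fold change was 0.32 ± 0.16. Another Plod2 probe of similar brightness, with a mean log2 value of 10.26 against 10.30, had 0.18. The remaining probe was dim, with a mean of 5.00, and had the opposite sign, at -0.28. Whether its low brightness accounts for the opposite sign was not tested. P3h1, a collagen prolyl 3-hydroxylase, had -0.17 ± 0.16, with its other probes at -0.12 and -0.04. Colgalt2, a collagen galactosyltransferase, had 0.27 ± 0.30, with its other probe at 0.43. Procollagen secretion had 5 positive and 4 negative among 9, with a median of 0.019, and the KDEL receptor gene Kdelr2, which returns escaped chaperones to the endoplasmic reticulum, had -0.21 ± 0.13, the COPII coat genes Sec23a and Sec13 -0.12 ± 0.12 and 0.07 ± 0.14.

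Outside the cell, the cleavage and cross-linking genes had 5 positive and 2 negative among 7 tested, with a median of 0.16. Pcolce2, which encodes an enhancer of procollagen C-proteinase, had 0.69 ± 0.38, with TG replicate 2 at 10.75 and WT replicate 3 at 8.74. Its other probe had 0.50. The lysyl oxidase-like genes Loxl4 and Loxl3 had 0.26 ± 0.14 and 0.16 ± 0.13, with the other Loxl4 probes at 0.33 and 0.20. Of 15 fibril-associated matrix genes 10 were positive and 5 negative, with a median of 0.03. Postn, encoding periostin of the periosteum, had 6.92, 7.13 and 6.96 in TG, against 6.90, 6.73 and 6.17 in WT, without overlap by a narrow gap. It was the 1 gene of the 15 without overlap, where 7.55% of all probes tested had none. The log2 fold change of Postn was 0.40 ± 0.20, with other probes at -0.29 and -0.14. Lum, encoding lumican, which limits fibril thickness, had -0.19 ± 0.14, with its other probe at -0.06. Col14a1, a collagen that sits on fibril surfaces, had 0.38 ± 0.30, with its other probe at 0.55. Of 6 collagen receptor genes tested, 2 were positive and 4 negative. Among them were the endocytic receptor gene Mrc2 at -0.17 ± 0.13, with other probes at -0.19 and -0.31, and the integrin gene Itgb1 at -0.15 ± 0.13, with another at -0.22. The collagen-activated kinase gene Ddr2 had 0.17 ± 0.18. No tested gene of these lists of collagen-related genes had an unadjusted p under 0.05 in limma, and the lists, like the members, were chosen with earlier results of these data known.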

How the data were processed

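Total RNA of 6 calvarial samples, 3 TG and 3 WT, was measured on Illumina bead arrays. In the deposited table each probe has a linear intensity, not background-subtracted, and a detection p-value for every array, per the file headers. The table ends with 974 unnamed control rows, whose header gives other replicate numbers and another age than the labels, which is unresolved. The last 936 were used as negative controls, since the deposited detection p-values could be recomputed from these rows to within 0.00695. The authors' normalised values were deposited on a log2 scale; the submitters' processing notes name lumi, and how it was set is not given in the sources used here. Every column of the authors' values correlated best with the intensities of its own array.

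With limma 3.58.1 under R 4.3.3, background was removed by normexp fitted to the negative controls with an offset of 16, and quantile normalisation on log2 values followed. Probes with a detection p under 0.05 on at least 3 of 6 arrays were tested: 20632 probes, standing for 11204 genes. The test of TG against WT was limma's lmFit and eBayes, two-sided, adjusted by Benjamini-Hochberg over all probes tested, at a threshold of 0.05; intervals are those of the moderated fit. A gene's brightest tested probe represents it. Marker levels are sums of 2 to the power of the log2 value, minus the offset. The code was checked on simulated data, and how often a true difference would pass the threshold is not reported here.

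Of 45281 probes, 34885 had 1 gene symbol in the platform annotation, 18 had several and 10378 were not named here. Every named collagen and Sparc probe is reported; of the other gene lists, the 3 genes with the smallest p are named; markers are named as examples. The members and lists were chosen with earlier results of these data known. The files name no genome build; promoter windows are from RefSeq. No replicate block was used in the reported fit: deviations of same-numbered TG and WT arrays from their group means correlated at 0.26, 0.15 and -0.17, so the numbers were not taken as pairs. Alternatives to the background step, scaling, filter, offset, variance, weights, covariates and samples are given in the closing section.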

Additional observations from a re-analysis of the deposited data

How the results depend on the processing

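No collagen or Sparc probe passed the threshold under any of 18 alternatives, with limma in each. Over all probes the count was 0 in the reported fit and 0 to 2 on leaving out 1 array. The 2 came without TG replicate 1 and were Xist and Kdm5d. In that fit all TG arrays had the female pattern and all WT arrays the male one. The count was 0 in the other alternatives, the replicate block included. The smallest adjusted p over all probes was 0.9997 with the replicate block, 0.219 with the Y-linked covariate and 0.334 with trended and robust variance. Probes with an unadjusted p under 0.05 numbered 529 to 1781, the highest without a filter on detection, against 712. Of 133 member gene values over alternatives, 17 had the other sign than the reported value, and Col3a1, Col5a2 and Col5a3 kept theirs in all 19 alternatives, at -0.17 to -0.08, -0.32 to -0.03 and -0.41 to -0.06. Col1a1 turned to -0.064 with median scaling, -0.068 with cyclic loess, -0.064 with a covariate for Y-linked signal, averaged over Kdm5d and Uty, and -0.062 when TG replicate 1 alone, the TG array of male pattern, was set against WT, a comparison chosen after seeing the data. Col5a1 became 0.20 in that covariate fit and 0.15 in that comparison. Sparc turned to -0.024 with median scaling, -0.027 with cyclic loess and -0.039 as the mean of its probes. On leaving out 1 array, Col1a1 ranged from -0.041 to 0.073, Col1a2 from -0.078 to 0.14 and Col5a1 from -0.086 to 0.052. The reported values that changed sign were near 0, but Col5a1 moved as far as 0.20. The cause of these sign changes was not tested. Brightness close to the array maximum may limit what a difference in Col1a1 and the brightest Sparc probe can show. Signal close to background may do the same for Col5a3 and the dim Col5a2 probes. Neither was tested.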
